A study of Sus scrofa with 8 samples.

Results

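De novo fatty acid synthesis, the pathway that builds palmitate from acetyl units, was followed through 10 genes of its enzymes and regulators in pig backfat. A probe set, the group of probes that reports 1 transcript on the array, was taken where the platform annotation gave exactly 1 gene symbol and that symbol was on the list. This gave 12 of the 23999 probe sets that are not controls, for 6 of the 10 genes: 4 for FASN, 2 each for ACACA, ME1 and ACSS2, and 1 each for SREBF1 and OXSM. Where a gene had several they are lettered by mean signal, A being the brightest. ACACB, ACLY, MLXIPL and THRSP had no probe set under that rule and were not analysed here.

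In mammals citrate leaves the mitochondrion and is split to acetyl-CoA, acetyl-CoA carboxylase makes malonyl-CoA from it, and fatty acid synthase joins these units with reducing power from NADPH. Adipose tissue is a main site of the pathway in pigs, in contrast to species that rely on the liver. Insulin and glucose raise the transcription of its genes through the factors SREBP-1 and ChREBP, and the genes are commonly switched on and off together.

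The study compared backfat, the fat under the skin of the back, from mid-body of KNP pigs aged 7 months with that of YS pigs aged 6 months, kept in the same conditions. Each of the 4 samples per breed was hybridised as total RNA to 1 Affymetrix GeneChip Porcine Genome Array. YS is given as Yorkshire on 1 label, KNP is not spelled out, no treatment is named, and whether the 4 samples of a breed came from different animals is not stated, so p-values reflect only how far these samples vary, which may be technical. Age goes with breed, so the 2 cannot be told apart. In whole tissue, fewer cells of a type and less RNA per cell also cannot be told apart.

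Some arrays stood apart before any comparison of breeds. The 3'/5' difference, the log2 signal of the 3' minus the 5' probe sets as the mean of the controls for actin, GAPDH and an elongation factor, was 8.54 on KNP replicate 1, 5.88 on KNP replicate 2 and 4.40 on YS replicate 4, and between 2.12 and 3.17 on the other 5 arrays. A large value means that little signal came from the 5' part of the transcripts. All 5 measured adipocyte marker genes of 7 on the list lay above the level of control probes with no target in pig RNA on all 8 arrays. Their summed signal ran from 66743 to 78420 in KNP and from 67168 to 76656 in YS. Most of it came from the fatty acid binding protein FABP4. Adiponectin (ADIPOQ), named after its values were seen, was uneven. Its signals were 156.2, 430.7, 5458 and 3122 in KNP and 4508, 2302, 3106 and 564.5 in YS, lowest on the arrays of large 3'/5' difference. The 8 measured skeletal muscle genes of 12 summed to between 209.3 and 69829 in KNP, the highest on KNP replicate 2, and to between 294.6 and 660.8 in YS. The part of muscle RNA and of the 3'/5' difference in the results was not tested, and the breed differences and the covariation are also given without these arrays.

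FASN encodes fatty acid synthase, the enzyme that carries out every step from malonyl-CoA to palmitate. Its brightest probe set, A, had signals of 29260, 27645, 3519 and 13245 on KNP replicates 1 to 4 and 37165, 20777, 22778 and 9002 on YS replicates 1 to 4. The breeds overlapped: KNP replicate 3 was the lowest of all arrays, YS replicate 4 the next, and YS replicate 1 the highest. The highest array was 10.6 times the lowest, and the lowest percentile it held among all probe sets of an array was 96.2.

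ME1 encodes the cytosolic malic enzyme, which supplies NADPH to the synthase. Probe set A had signals of 25891, 8734, 2989 and 5379 on the KNP arrays in order and 26070, 11668, 7141 and 3129 on the YS arrays. The highest and the lowest array of KNP were close to those of YS, and the range over all arrays was 8.72-fold. The other ME1 probe set, B, had signals of 14599, 4932, 449 and 2202 in KNP and 11143, 4659, 2580 and 1526 in YS, with the same array lowest in each breed.

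ACSS2 encodes the cytosolic acetyl-CoA synthetase, which makes acetyl-CoA from acetate. Probe set A had signals of 8419, 5395, 656 and 1561 in KNP and 6805, 4290, 2389 and 1955 in YS. Here too KNP replicate 3 was the lowest array, 12.8-fold below KNP replicate 1. Probe set B had signals of 1793, 1229, 338 and 796 in KNP and 4584, 2005, 1274 and 489 in YS, again lowest on KNP replicate 3 and on YS replicate 4 within the breeds.

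The remaining member probe sets were dimmer. SREBF1, the gene of the transcription factor SREBP-1 that switches on the lipogenic genes, had signals of 197, 242, 124 and 91.8 in KNP and 189, 83.3, 82.9 and 123 in YS, above the no-target level on 6 of 8 arrays. OXSM encodes the ketoacyl synthase of the separate mitochondrial pathway, which supplies the precursor of lipoic acid. Its signals were 343, 428, 362 and 443 in KNP and 320, 631, 586 and 589 in YS, above the no-target level on all 8 arrays, and with a range of 1.97-fold it varied least of the 12 probe sets.

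ACACA encodes acetyl-CoA carboxylase 1, which makes the malonyl-CoA used for synthesis. Its probe set A ran from 33.0 to 257 in KNP and from 11.1 to 217 in YS, above the no-target level on 6 arrays. Probe set B ran from 6.87 to 124 in KNP and from 12 to 106 in YS, above that level on 2 arrays, and was the 1 member probe set too dim for the test. ACACA was therefore measured close to background on this array design. The 3 other FASN probe sets were also far dimmer than the first: probe set B ran from 59.0 to 789, C from 50 to 466 and D from 20.9 to 199, the last above the no-target level on 3 arrays.

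**Figure D1:**
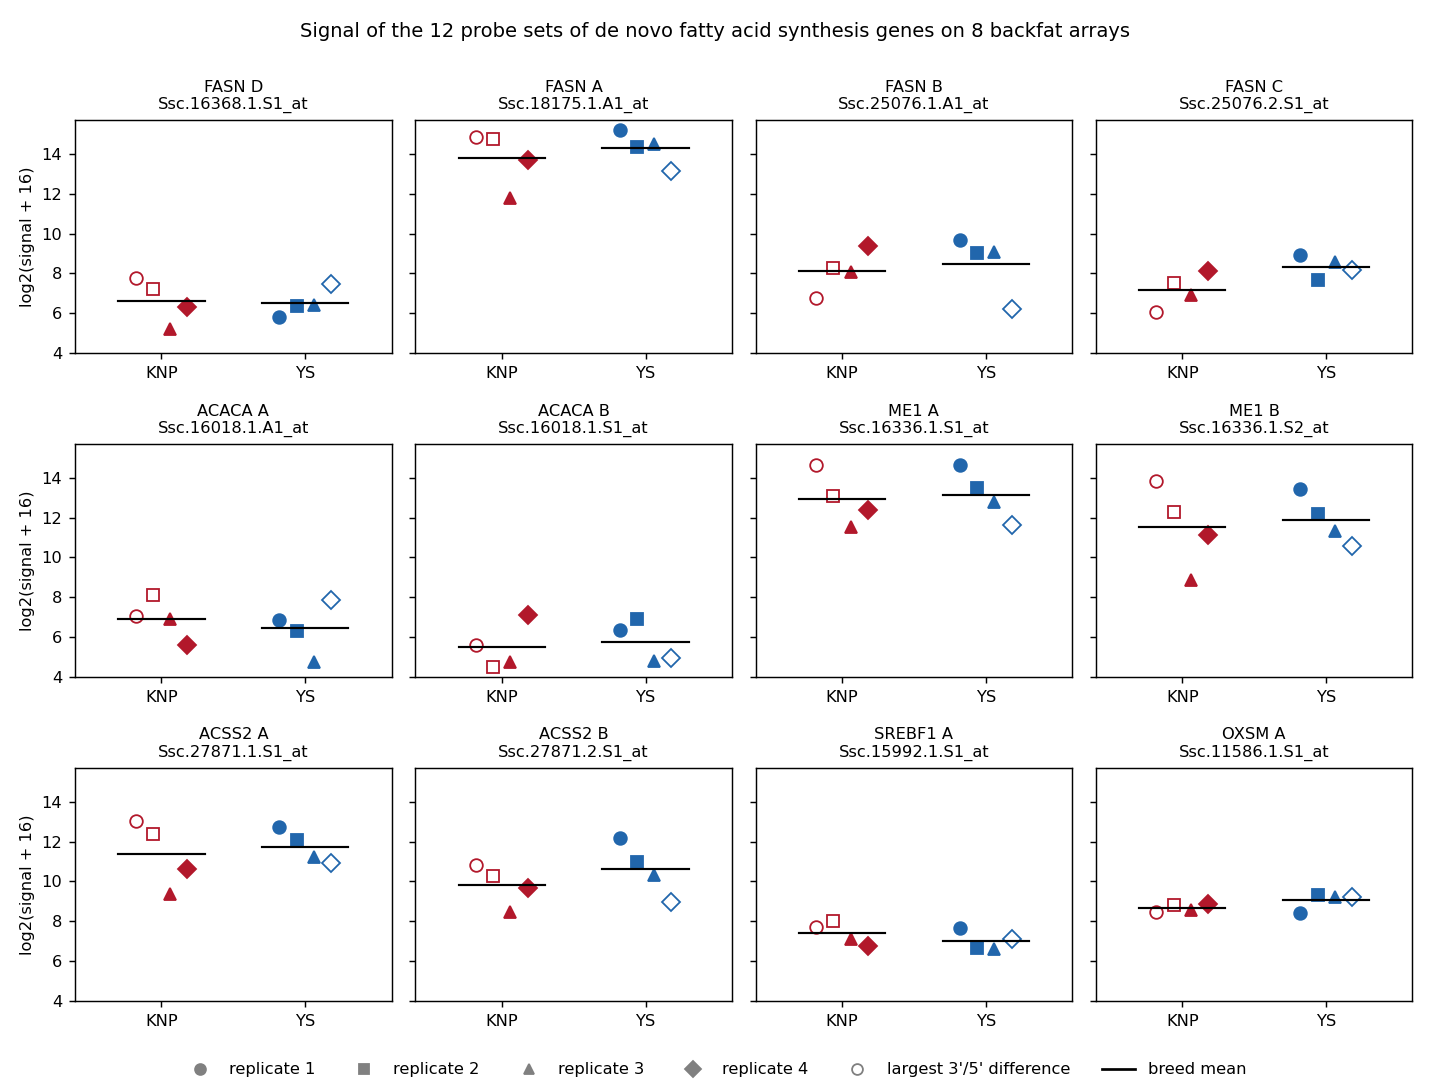
Log2(signal + 16) of the 12 probe sets on each array, by breed; marker shapes are the replicates, open markers the 3 arrays of largest 3'/5' difference, and bars the breed means over 4 arrays. For FASN probe set A, ME1 and ACSS2 the KNP replicate 3 array lies lowest, and for all 12 probe sets the breeds overlap.

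Against other probe sets on the same array, the brightest FASN probe set lay at a median percentile of 99.4, ME1 at 98.4 and 95.8, and ACSS2 at 95.4 and 87.7. OXSM lay at 69.6, SREBF1 at 40.5 and ACACA at 35.4 and 12.5. Signal also depends on how well a probe set binds its target, so these percentiles describe the arrays and do not rank the transcripts by copy number. The FASN probe sets themselves ran from a median percentile of 30.7 to 99.4.

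Whether the pathway differed between KNP and YS backfat was asked with limma on log2(signal + 16), fitted to the 17999 brightest probe sets, with Benjamini-Hochberg adjustment over all of them. Of the 11 member probe sets tested, 0 passed an adjusted p of 0.05, as did 0% of all probe sets, and 1 had an unadjusted p under 0.05, where 2.84% of all probe sets did, 1.49% higher and 1.35% lower in KNP. Lower means in KNP were seen for 8 of the 11 and higher means for 3, with a median difference of -0.38, against 50.1% lower and a median of -0.0010 over all probe sets tested. This balance rests on single arrays: without KNP replicate 3, 4 of the 11 were lower and the median was 0.23, and without YS replicate 1, 6 were lower and the median was -0.05. For 0 of the 11 did the breeds separate without overlap, against 1.96% of all (1.1% with KNP above and 0.856% with KNP below). These probe sets are not independent of each other, since several report the same gene.

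For FASN probe set A the KNP arrays averaged 13.77 ± 1.42 and the YS arrays 14.29 ± 0.85 (SD, n = 4), a log2 difference of -0.52 ± 0.70 (SE, adjusted p = 0.9998 in limma) with a 95% confidence interval from -2.10 to 1.06. Differences of that size in either direction were not resolved by 4 arrays per breed. ME1 differed by -0.23 ± 0.77 and -0.37 ± 1.0 in its 2 probe sets, and ACSS2 by -0.38 ± 0.78 and -0.81 ± 0.71 (SE, KNP minus YS). The widest of these 4 intervals ran from -2.63 to 1.89. None of them had an unadjusted p under 0.05.

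The single probe set with an unadjusted p under 0.05 was FASN probe set C. Its signals were 50, 166, 106 and 266 in KNP and 466, 188, 360 and 275 in YS. KNP replicate 4 overlapped the YS arrays, and KNP replicate 1, the array with the largest 3'/5' difference, was the lowest. The log2 difference was -1.17 ± 0.47 (SE, interval -2.23 to -0.12), with an unadjusted p of 0.0327 and an adjusted p of 0.9998 in limma.

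SREBF1 averaged 7.41 ± 0.57 over the KNP arrays and 7.02 ± 0.50 over the YS arrays (SD, n = 4), a log2 difference of 0.39 ± 0.37 (SE). OXSM differed by -0.38 ± 0.28, and ACACA probe set A by 0.48 ± 0.70. Of these 3 genes OXSM had the narrowest interval, from -1.01 to 0.25. The median share of the sum of squares that lay within breeds was 94.6% over the 11 probe sets. It was 93.9% for the brightest FASN probe set, 99.0% for ME1 probe set A, 70.0% for OXSM and, lowest of all, 53.9% for FASN probe set C. The share over all probe sets was not computed, so these values describe the members and do not set them apart.

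Leaving out the 3 arrays of largest 3'/5' difference, a choice made after seeing the data, left KNP replicates 3 and 4 against YS replicates 1, 2 and 3. The differences of FASN probe set A, ME1 and ACSS2 then became larger: -1.93 ± 0.60 for FASN, -1.69 ± 0.59 and -2.34 ± 0.85 for ME1, and -2.01 ± 0.56 and -2.09 ± 0.63 for ACSS2 (SE, log2, KNP minus YS). These 5 of 11 probe sets (45.5%) had an unadjusted p under 0.05, all lower in KNP, where 8.42% of all probe sets had such a p, 4.54% with KNP lower and 3.88% with KNP higher. The smallest adjusted p among members was 0.509 in limma, and 0 of the 17999 probe sets passed. The 5 probe sets report 3 genes that vary together, and KNP replicate 3, the lowest array for each, makes up 1 of the 2 KNP arrays left. With all 8 arrays and the 3'/5' difference as a covariate, 0 of the 11 members had an unadjusted p under 0.05, where 4.87% of all probe sets did.

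**Figure D2:**
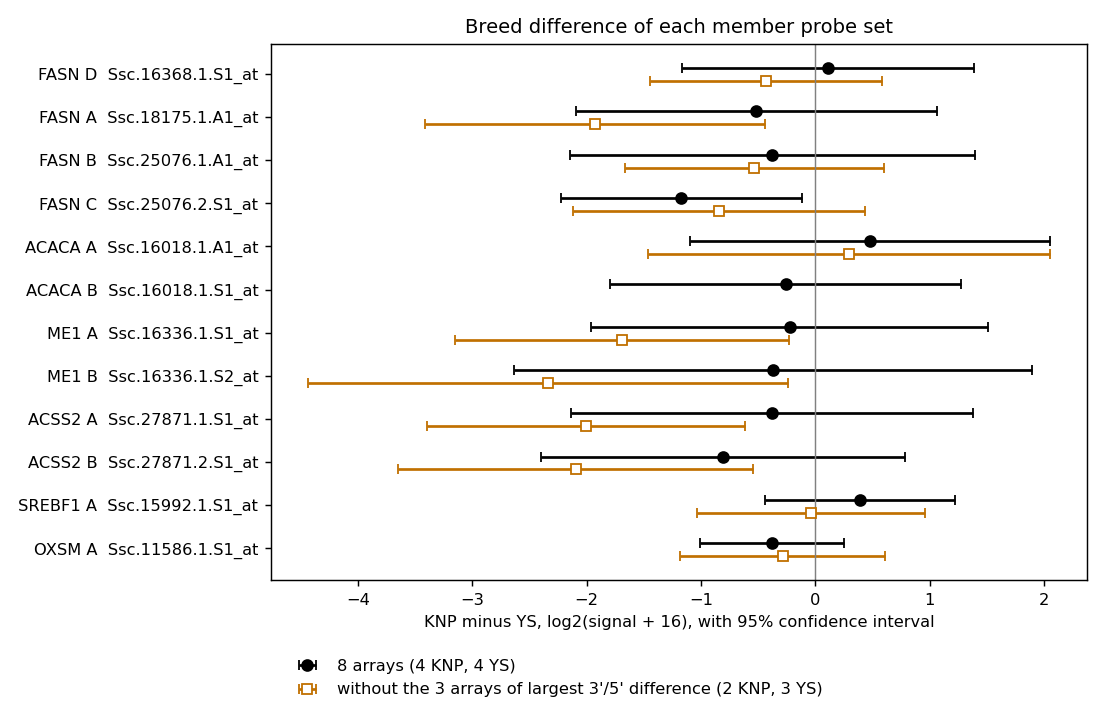
KNP minus YS difference in log2(signal + 16) of each member probe set with its 95% confidence interval from limma, over 8 arrays (filled, 4 per breed) and without the 3 arrays that stood apart (open, 2 KNP and 3 YS); ACACA probe set B is from the fit without the filter on dim probe sets. With 8 arrays 1 interval lies wholly below 0, and without the 3 arrays those of FASN probe set A, ME1 and ACSS2 do.

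Although the breeds were not separated, FASN, ME1 and ACSS2 rose and fell together from array to array. Over the 8 arrays, with each gene taken by its brightest probe set, FASN and ACSS2 correlated with a Pearson r of 0.924 and a Spearman rho of 0.929 (exact permutation, two-sided, adjusted p = 0.013 for r and 0.0112 for rho, adjusted over 15 pairs). ME1 and ACSS2 had an r of 0.901 and a rho of 0.929 (exact permutation, adjusted p = 0.013 and 0.0112). FASN and ME1 had an r of 0.856 and a rho of 0.929 (exact permutation, adjusted p = 0.0156 and 0.0112). Without the 2 arrays farthest from the median of the first gene, r was 0.875, 0.84 and 0.811 for these pairs in turn, with 6 arrays.

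These 3 of the 15 pairs among the 6 genes passed. An r of at least 0.7 was reached by 4 of 15 pairs (26.7%), against 4.66% of all 22879230 pairs among 6765 named genes. The median r was 0.225 among members and 0.0053 among all pairs. The named genes include dim ones and were not matched to the members for brightness. The fourth pair was SREBF1 with ACACA, at an r of 0.746 and a rho of 0.81 (exact permutation, adjusted p = 0.129 and 0.0817), and both of these genes were near background on some arrays. Without the 2 arrays farthest from the ACACA median its r was 0.576.

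SREBF1 had an r of 0.359 with FASN, 0.451 with ME1 and 0.549 with ACSS2 and rho of 0.429, 0.31 and 0.5 (exact permutation, adjusted p of r between 0.39 and 0.666). Without the 2 farthest arrays r was 0.719, -0.0419 and 0.659, and with breed means removed it was 0.51, 0.535 and 0.676. On the 5 arrays of smaller 3'/5' difference it was 0.114, 0.461 and 0.265. OXSM, the mitochondrial enzyme, had negative r with the other 5 genes over 8 arrays, from -0.689 with SREBF1 (rho -0.714, exact permutation adjusted p = 0.202) to -0.082 with FASN (rho -0.524, adjusted p = 0.915). The sign was not stable: without the 2 farthest arrays r was 0.41 with ME1 and 0.0348 with ACACA, and on the 5 arrays it was 0.217 with FASN and 0.121 with ACSS2. None of the pairs with SREBF1 or OXSM passed. Whether these r values differ from those of the enzyme pairs was not tested.

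The covariation was also seen with breed taken out. With the breed means removed and arrays permuted within breeds, r was 0.924 for FASN with ACSS2, 0.902 for ME1 with ACSS2 and 0.862 for FASN with ME1, and the last did not pass (exact permutation, adjusted p = 0.0608). With the relation to the 3'/5' difference removed, r was 0.939, 0.893 and 0.826, and again FASN with ME1 did not pass (permutation of the values left, adjusted p = 0.0692). This p is approximate, since the values left after the removal depend on each other. On the 5 arrays without the largest 3'/5' differences r was 0.942, 0.978 and 0.893, and 0 pairs passed (4 had an unadjusted p under 0.05). Leaving out 1 array at a time kept r between 0.825 and 0.959, but the number of pairs that passed went from 3 to 0 without KNP replicate 3, to 1 without KNP replicate 1 and to 1 without YS replicate 1. Without KNP replicate 2, the array rich in muscle genes, 3 pairs passed. With each gene taken by the mean of its probe sets, 1 pair passed: ME1 with ACSS2 had an r of 0.973, while FASN had 0.718 with ACSS2 and 0.615 with ME1 (exact permutation, adjusted p = 0.317 and 0.396).

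**Figure D3:**
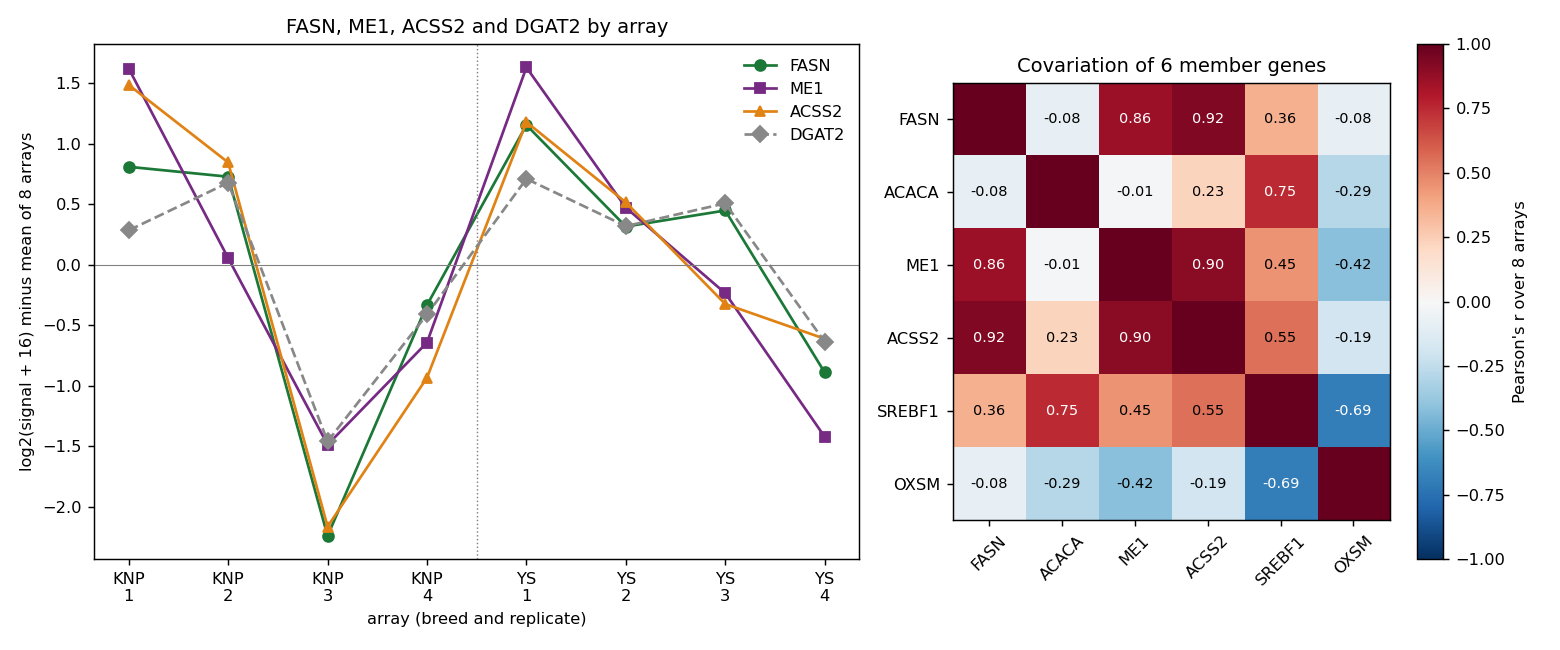
Left, log2(signal + 16) of the brightest probe sets of FASN, ME1, ACSS2 and DGAT2 on each array, minus the gene's mean over 8 arrays; right, Pearson's r over the 8 arrays for each pair of the 6 member genes. The 4 lines are lowest on KNP replicate 3, and r is 0.856 to 0.924 among FASN, ME1 and ACSS2.

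How far a gene's probe sets told the same story differed between genes. The 2 probe sets of ME1 correlated with an r of 0.948 and a rho of 0.952 (exact permutation, adjusted p = 0.00179 over 9 such pairs), and those of ACSS2 with an r of 0.856 and a rho of 0.81 (exact permutation, adjusted p = 0.0325). Without the 2 arrays farthest from the median these were 0.891 and 0.822. For the FASN probe sets r ran from -0.654 to 0.558, and 0 of 6 pairs passed (0 had an unadjusted p under 0.05), although B with C had an r of 0.896 without the 2 farthest arrays. The 2 ACACA probe sets had an r of -0.368 and a rho of -0.524 (exact permutation, adjusted p = 0.538).

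The gap between probe sets moved with the 3'/5' difference of the array for 4 of the 6 pairs of FASN probe sets and for ACSS2. The brightest FASN probe set stood 3.74 above B on the log2 scale on KNP replicate 3 and 8.05 above it on KNP replicate 1, and this gap correlated with the 3'/5' difference with an r of 0.903 and a rho of 0.857 (exact permutation, adjusted p = 0.00603 over 9 gaps), and 0.919 without the 2 farthest arrays. The gap from A to C had an r of 0.821 and a rho of 0.69 (exact permutation, adjusted p = 0.0366), but -0.0948 without the 2 farthest arrays, so that relation rests on them. The gaps from D to B and from D to C had an r of 0.799 and 0.926 and a rho of 0.833 and 0.81 (exact permutation, adjusted p = 0.0417 and 0.00632), and 0.875 and 0.611 without the 2 arrays. Those between D and A and between B and C did not pass, at an r of 0.245 and -0.183 and a rho of 0.167 and -0.5 (exact permutation, adjusted p = 0.595 and 0.676). For ACSS2 the gap ran from 0.568 on YS replicate 1 to 2.22 on KNP replicate 1, with an r of 0.88 and a rho of 0.786 (exact permutation, adjusted p = 0.00603), and 0.835 without the 2 arrays. For ME1 it ran from 0.822 to 2.69, largest on KNP replicate 3, with an r of -0.613 and a rho of -0.714 (exact permutation, adjusted p = 0.181).

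The signals of single probe sets were set against the 3'/5' difference in the same way. The dim FASN probe set D had the highest r, 0.84, with a rho of 0.881 (exact permutation, adjusted p = 0.0524 over 12 probe sets) and 0.852 without the 2 farthest arrays, and 0 of the 12 passed. FASN probe sets B and C had an r of -0.653 and -0.666 and a rho of -0.619 and -0.381 (exact permutation, adjusted p = 0.233 for both). The brightest probe sets of FASN, ME1 and ACSS2 had an r of 0.405, 0.44 and 0.622 and a rho of 0.405, 0.381 and 0.667 (exact permutation, adjusted p between 0.233 and 0.419), falling to 0.0676, -0.196 and 0.222 without the 2 arrays farthest from the median. The place of each probe set along its transcript was not used here.

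**Figure D4:**
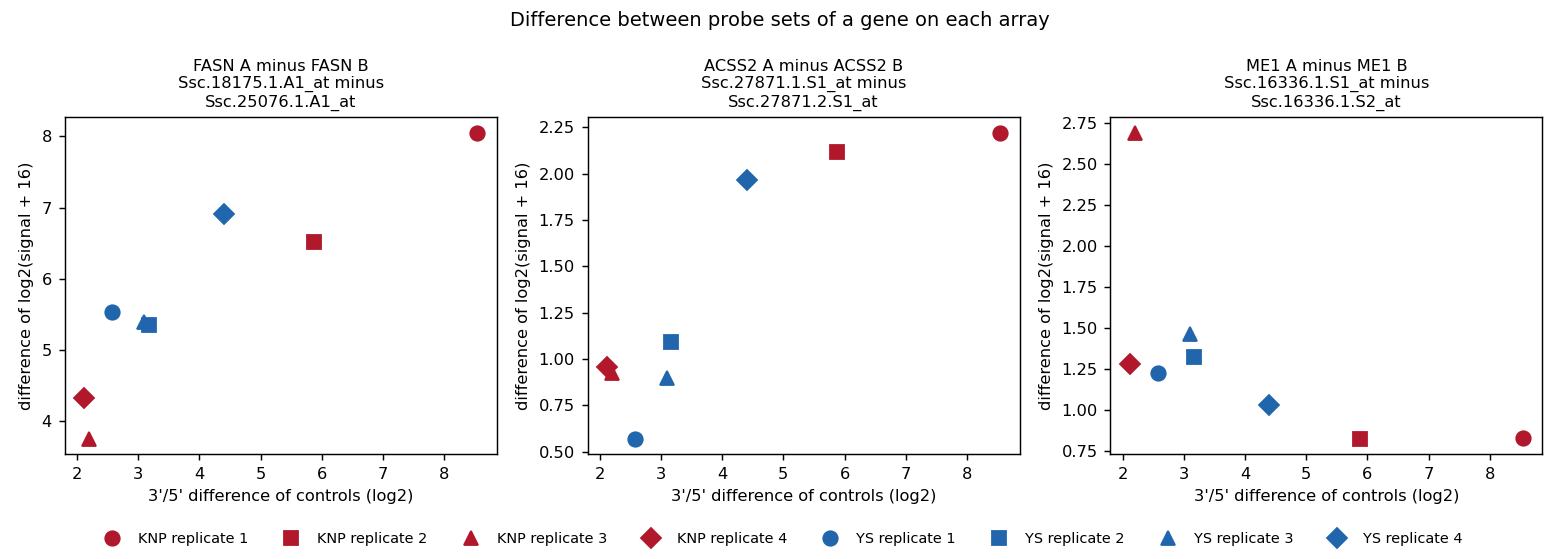
Difference in log2(signal + 16) between 2 probe sets of FASN, of ACSS2 and of ME1 on each array, against the 3'/5' difference of the array's housekeeping controls. The gap grows with the 3'/5' difference for FASN (r of 0.903) and ACSS2 (r of 0.88), while for ME1 the largest gap, 2.69, is on KNP replicate 3.

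The genes whose pattern over the 8 arrays was most like that of FASN were sought among the other 6764 named genes, each by its brightest probe set, of which 4.97% reached an r of 0.7. The first 5 were chosen for their r, so it is given as a description. DGAT2, which catalyses the last step of triacylglycerol synthesis, came first with an r of 0.975 and a rho of 0.857. Its signals were 18750, 24625, 5584 and 11572 in KNP and 25179, 19196, 21882 and 9898 in YS, lowest on KNP replicate 3 and next on YS replicate 4, as for FASN.

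HSD17B12, a ketoacyl-CoA reductase of fatty acid elongation, followed with an r of 0.954 and a rho of 0.952. CKB, the brain-type creatine kinase, had an r of 0.951, PDE6C, a cyclic nucleotide phosphodiesterase known from cone cells, 0.948, and GCHFR, the feedback regulator of GTP cyclohydrolase, 0.944. Without the 2 arrays farthest from the FASN median the r of PDE6C was 0.568 and of DGAT2 0.878. ACSS2 stood at rank 13 of the 6764 genes and ME1 at rank 68, while SREBF1 was at rank 1527.

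Other genes around the pathway were taken from 7 lists, of which 52 further genes were measured and 50 were bright enough to test. Between the breeds 0 of the 50 passed and 0 had an unadjusted p under 0.05 in limma, where 2.84% of all probe sets had such a p, with 32 lower (64%) and 18 higher in KNP and a median difference of -0.185, against 50.1% lower and a median of -0.0010 over all. Their r with FASN was at least 0.7 for 19 of the 52 (36.5%), against 4.97% of all named genes, with a median of 0.235 against 0.0198. Without the 2 arrays farthest from the FASN median, KNP replicate 3 and YS replicate 4, 15 of the 52 (28.8%) reached it, 12 of them among the 19, against 8.69% of all named genes. Without the 3 arrays of large 3'/5' difference 25 did (48.1%, against 14.3%), without KNP replicate 2 22 did (42.3%, against 6.19%), and with the relation to the 3'/5' difference removed 16 did (30.8%, against 5.88%), all chosen after seeing the data. All named genes include dim ones and were not matched to the lists for brightness. The r values below are descriptions over the 8 arrays, which all genes share.

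Genes that supply citrate and NADPH held 11 of those 19, and 6 of these 11 stayed at 0.7 or above without the 2 arrays farthest from the FASN median. They held 11 at that level without the 3 arrays of large 3'/5' difference and 8 with the relation to it removed. Of 8 citrate supply genes 6 reached an r of 0.7 with FASN. In KNP 6 were lower and 2 higher, where 50.1% of all probe sets tested were lower. Citrate synthase (CS) had an r of 0.867 and a rho of 0.929, whereas pyruvate carboxylase (PC), which refills oxaloacetate, had an r of -0.038 and PDHA1, a subunit of pyruvate dehydrogenase, 0.066. The citrate carrier SLC25A1, named after its values were seen, had the highest r of the list, 0.913. Its signal was lowest on KNP replicate 3 in KNP and on YS replicate 4 in YS, as for FASN.

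Of 7 NADPH supply genes 5 reached an r of 0.7 over 8 arrays and 2, TKT and TALDO1, without the 2 arrays farthest from the FASN median. The pentose phosphate enzymes TKT and TALDO1 had an r of 0.818 and 0.795 and a rho of 0.929 and 0.952, and the cytosolic malate dehydrogenase MDH1 0.77, which was 0.451 without the 2 arrays. PGD and IDH1, named after their values were seen, had an r of 0.856 and 0.71, which fell to 0.457 and 0.579 without the 2 arrays. The mitochondrial malic enzyme ME3 had an r of 0.258. It averaged 9.27 ± 0.33 on the log2 scale over the KNP arrays and 8.26 ± 1.44 over the YS arrays (SD, n = 4), the largest breed difference of the list at 1.01, and did not pass. On YS replicate 4 the ME3 signal was 59.7, below that array's no-target level of 161, against 281 to 687 on the other YS arrays.

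Among the lists for control of the pathway, 0 of 7 genes of the SREBP and LXR list reached an r of 0.7 over 8 arrays. Without KNP replicate 2 1 did, and without the 3 arrays of large 3'/5' difference 1 did, at an r of 0.946. The highest over 8 arrays was INSIG1, which holds SREBP in the endoplasmic reticulum and is itself an SREBP target, at 0.659 with a rho of 0.333. SCAP, the escort of SREBP, had 0.262 and INSIG2 -0.01. In the list around ChREBP 2 of 4 genes reached 0.7 over 8 arrays: the glucose transporter SLC2A1 at 0.759 and hexokinase HK1 at 0.705. Without the 2 arrays farthest from the FASN median 1 did, HK1 at 0.788, while SLC2A1 had 0.532. Without the 3 arrays of large 3'/5' difference 2 of the 4 did. Over 8 arrays the insulin-regulated transporter SLC2A4 had -0.253, and USF2, a factor that binds lipogenic promoters, -0.123. Without the 2 arrays farthest from the FASN median they had 0.0041 and 0.093. On KNP replicate 2 the SLC2A4 signal was 66.5, below that array's no-target level of 115. USF2 had a breed difference of -0.98 that did not pass. On KNP replicate 1 the USF2 signal was 72.3, below that array's no-target level of 89.5.

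In the list for control of acetyl-CoA carboxylase and of lipogenesis 1 of 8 genes reached 0.7 over 8 arrays. This was MID1IP1, a protein that promotes the assembly of the carboxylase into active filaments, with an r of 0.846 and a rho of 0.81. Without the 2 arrays farthest from the FASN median MID1IP1 had 0.692. On those 6 arrays 2 other genes of the list reached 0.7, PRKAA2 at 0.782 and FABP4 at 0.735. Over 8 arrays PRKAA1, a catalytic subunit of the kinase AMPK that switches the carboxylase off, had an r of -0.662. PRKAG1, a regulatory subunit, had 0.175, and FABP4, which is also an adipocyte marker here, -0.0011. For the mitochondrial pathway 2 of 7 genes reached 0.7 over 8 arrays, the acyl carrier protein NDUFAB1 at 0.812 and HSD17B8 at 0.744. The lipoic acid enzymes LIAS and LIPT1 had 0.603 and -0.238.

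Of 11 genes that use the products 3 reached 0.7: DGAT2, the acyl-CoA synthetase ACSL1 (named after its values were seen) at 0.828 and the desaturase SCD at 0.889, with a rho of 0.905. Without the 2 arrays farthest from the FASN median 4 of the 11 did. Without the 3 arrays of large 3'/5' difference 7 did (63.6%, against 14.3% of all named genes). SCD averaged 14.91 ± 2.02 on the log2 scale over the KNP arrays and 15.63 ± 0.15 over the YS arrays (SD, n = 4). The elongase ELOVL6, which lengthens palmitate, had an r of 0.457, ELOVL1 0.033 and FADS2 0.432, the last above the no-target level on 1 array. Of the 10 genes of this list bright enough to test, 8 were lower and 2 higher in KNP, with a median of -0.47, and none passed. Over all probe sets tested 50.1% were lower, with a median of -0.0010. Of the 8, SCD, DGAT2, ACSL1 and FADS2 were lowest of all arrays on KNP replicate 3, while ELOVL6, GPAM, AGPAT2 and DGAT1 were not. The SCD signal was 4103 on that array, against 37269 to 96882 on the other KNP arrays.

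Markers of cell types were set beside FASN in the same way. Of 5 adipocyte markers 0 reached an r of 0.7: leptin (LEP) was highest at 0.56 and adiponectin (ADIPOQ) lowest at -0.323, both named after their values were seen. This order rests on few arrays: without the 2 farthest from the FASN median, FABP4 had 0.735 and LEP 0.173, and 1 of the 5 also reached 0.7 without KNP replicate 2 and without the 3 arrays of large 3'/5' difference. All 4 endothelial markers were negative over 8 arrays, from -0.872 for PECAM1 to -0.122 for VWF, which turned to 0.136 with the relation to the 3'/5' difference removed, and their summed signal ran from 10482 to 19189 in KNP and from 12994 to 14373 in YS. The 3 measured macrophage markers of 5 ran from -0.851 to -0.365, with a summed signal of 600.9 to 2522 in KNP and 1337 to 2058 in YS, and 1 of them lay above the no-target level on all 8 arrays. The 8 skeletal muscle genes ran from 0.111 to 0.424, and 0 of them lay above that level on all 8 arrays. Of the 4 fibroblast and progenitor genes lumican (LUM) reached 0.847, or 0.634 without the 2 arrays farthest from the FASN median. Without the 3 arrays of large 3'/5' difference 3 of the 4 (75%) reached 0.7, against 14.3% of all named genes. With the relation to the 3'/5' difference removed 2 did, against 5.88% of all. The summed signal of this list ran from 21525 to 42505 in KNP and 23279 to 51343 in YS. The 5 T and NK cell genes ran from -0.176 to 0.223. All 5 had lower means in KNP, against 50.1% of all probe sets tested, and none passed. Of these, CCL5 differed by -1.69, with an unadjusted p of 0.0213 in limma, where 2.84% of all probe sets had one under 0.05. Its signal lay above the no-target level on 7 arrays. The 2 red blood cell and 2 keratinocyte genes measured did not reach 0.7 over 8 arrays. The part of the number of cells of each type in the FASN pattern was not tested.

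**Figure D5:**
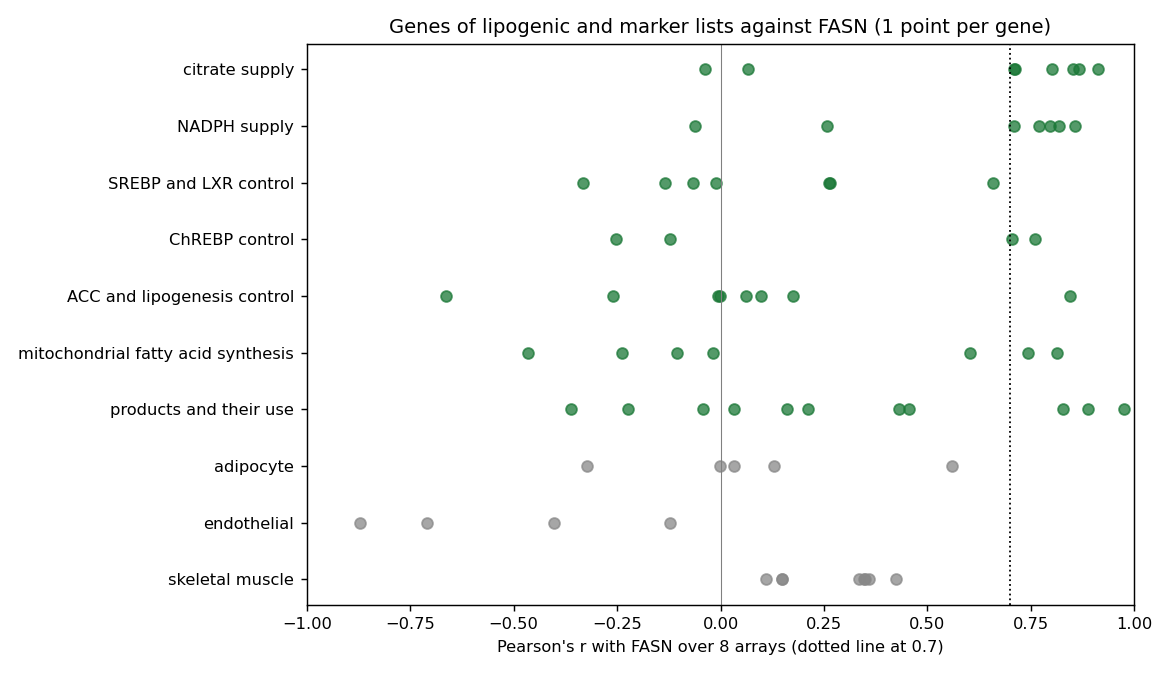
Pearson's r with FASN over 8 arrays for each measured gene of 7 lists around the pathway (green) and of 3 marker lists (grey), with a dotted line at 0.7. Over these 8 arrays citrate and NADPH supply hold 11 of the 19 lipogenic genes at or above 0.7, while the 4 endothelial markers lie below 0.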

How the data were processed

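RNA was hybridised to 8 one-colour Affymetrix arrays, 4 per breed. The deposited table gives each of 24123 probe sets a linear intensity on every array, scaled so that the trimmed mean (2% off each end) is 500.1 throughout, as read from the values; how the authors summarised probes is not stated, and extraction and labelling followed Affymetrix protocols, per the labels. Precision is limited by the number of arrays. Here 124 controls and the dimmest 25% of the other probe sets (by overall mean) were dropped, and log2(signal + 16) was fitted for breed using limma version 3.58.1 under R version 4.3.3 (lmFit and eBayes, two-sided, Benjamini-Hochberg over 17999 probe sets, threshold 0.05). Symbols came from the platform annotation. The no-target level, 40.6 to 161 by array, is the 95th percentile of 23 control probe sets without a target in pig RNA. Correlations used each gene's brightest probe set and exact permutation of arrays, which is approximate where the relation to the 3'/5' difference was removed. Scripts were tested on simulated data. All member genes are named, as are the 5 genes most like FASN. From each list around the pathway the 2 genes with the smallest p and the 2 with the highest mean are named. Of the marker lists only some genes are named. The members and lists were chosen with earlier results of these data known, and the relation of probe set gaps to the 3'/5' difference was examined after seeing the data. Alternatives were other filters, scalings, pseudocounts and variance models, weighting of arrays, blocking by replicate number, a 3'/5' covariate, each array left out, Spearman's rho and averaging the probe sets of a gene.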

Additional observations from a re-analysis of the deposited data

Results flagged for a closer look

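In each of 26 groups of 4 arrays (12 probe sets and the 3'/5' difference in 2 breeds) the highest and lowest array were compared with the rest by Dixon's test, which flags about 1 in 20 groups by chance. It marked 1 group. OXSM on YS replicate 1 had a log2 signal of 8.39, and its gap to the other YS arrays made up 0.892 of the range of the 4. The signal there was 320, against 631, 586 and 589 on the other YS arrays. The same array was the highest of the 8 for FASN probe set A.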

How the results depend on the processing

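No setting made a member probe set or any other probe set pass between breeds; the smallest adjusted p over all probe sets was 0.0596 in limma, with a variance trend and robust fit. The replicate numbers did not pair the arrays (correlations of deviations from -0.188 to 0.125, none best with its own number), and with the replicate block 0 probe sets passed and 509 had an unadjusted p under 0.05. Pairs that covaried numbered 3, against 1 with the probe sets of each gene averaged, 0 without the 3 arrays with the most 3' excess, and 0 to 4 with each array left out in turn; the cause was not tested, though fewer arrays also raise the smallest p.

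Differences that turned direction were all short of the threshold. FASN probe set D was -0.014 under array weights, -0.38 after adding the 3'/5' covariate, -0.43 without the 3 arrays and -0.27 to 0.58 with each array left out. FASN probe set B was 0.14 with the covariate and -1.13 to 0.068 with each array left out, and SREBF1 was -0.037 without the 3 arrays. With each array left out, FASN probe set A ran from -0.90 to 0.14, ME1 from -0.80 to 0.28 and from -1.14 to 0.52, ACSS2 probe set A from -0.94 to 0.28 and ACACA probe set A from -0.083 to 0.95. Values near the no-target level, as for ACACA, SREBF1 and the dim FASN probe sets, limit what the arrays show of these transcripts.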
